A study of Sus scrofa with 8 samples.

Results

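Liver RNA was examined for 8 genes of fructose and glycogen metabolism out of the 18103 genes and new transcripts in the expression table. The genes were chosen by their place in these pathways: KHK and TKFC, enzymes of fructose breakdown; SLC2A2 and SLC2A5, membrane carriers of sugars; and GYS2, PYGL, GBE1 and PPP1R3C, which build, break down or regulate glycogen. All 8 symbols were found, each in 1 row of the table, and 7 of the 8 passed the filter on low values (at least 0.3 FPKM in at least 4 libraries). The libraries came from the liver of male Landrace x Large White pigs, each library holding RNA pooled from 2 pigs. The 4 libraries of the initial state (labelled Control and healthy) were made at 4 months of age from biopsies, on the control diet. The 4 libraries of steatosis were made at 6 months of age, after euthanasia, once the same animals had eaten the steatotic diet for 2 months. That diet was rich in cholesterol, cholate, saturated fat and fructose and poor in methionine and choline. Livers were sampled after an overnight fast at both times. Diet, age and way of sampling changed together, and their parts cannot be told apart. The p values measure the spread between pools of 2 pigs, and in a whole-liver library fewer cells of a type and less RNA per cell cannot be told apart.

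Fructose enters the hepatocyte through a sugar carrier, is phosphorylated by ketohexokinase, is then split, and yields glyceraldehyde, which triokinase phosphorylates so that the carbon can join glycolysis, gluconeogenesis or lipid synthesis. This route passes by the regulated step of glycolysis at phosphofructokinase. Glycogen, the liver's glucose store, is started on glycogenin, lengthened by glycogen synthase and branched by the branching enzyme. In fasting it is shortened by glycogen phosphorylase, and the glucose is released to the blood through glucose-6-phosphatase and the carrier GLUT2.

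Expression was given as FPKM (fragments mapped to a transcript, relative to its length and to all mapped fragments of the library), and relative depth, read from the step between the lowest values, lay between 92.8% and 100% of the deepest library. Changes were tested with limma across all 13175 genes that passed the filter, on log2(FPKM + 0.1), a scale that understates the change of low genes. Over all tested genes the log2 fold change had a median of 0.25 in favour of steatosis in the deposited values. It was -0.02 after median ratio scaling, and each change is to be read against that shift. In this scaling every library was divided by the median of its ratios to the arithmetic mean of each gene over the libraries. Hepatocyte markers were abundant in all libraries, with summed levels of 59677 to 92451 FPKM in the initial state and 55552 to 68768 FPKM in steatosis, and 2 of the 8 rose with the deposited values but 0 after median ratio scaling, when 1 fell. Of 9 macrophage markers 7 rose, and 5 after that scaling, and their sum went from 538–739 FPKM to 951–1105 FPKM. Markers were called at an adjusted p under 0.05 in limma. With this limit 26.7% of all tested genes rose and 2.28% fell with the deposited values. After that scaling 11.3% rose and 10.1% fell. Initial pool 1 stood apart. Its 9 skeletal muscle markers summed to 2942 FPKM, against 1.1 to 22.1 FPKM in the other initial pools and 0.31 to 1.29 FPKM in steatosis, and its 8 stomach mucosa markers summed to 1524 FPKM, against at most 29 FPKM elsewhere. The 4 adipose markers summed to 33.7 FPKM in this pool and to 1.95–4.16 FPKM in the others. Red cell markers summed to 262–1290 FPKM in the initial state and 136–426 FPKM in steatosis, and 0 of 2 tested markers passed with the deposited values, while 1 fell after that scaling. The small intestine list summed to 1466–2556 FPKM and then 320–1028 FPKM, with 1 marker higher (VIL1) and 1 lower (APOA4) of 3 tested. APOA4 made up nearly all of this sum, with 1464.03–2554.67 FPKM and then 308.63–1021.28 FPKM. FABP2, SI and LCT stayed at or below 0.55 FPKM in all libraries. The part of other cell types and tissues in the changes given here was not tested.

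Of the 7 tested genes, GYS2 fell and PYGL rose at an adjusted p under 0.05, and 5 passed in neither direction. Among all tested genes 26.7% rose and 2.28% fell by the same criterion. By the stricter limits of the study, an adjusted p under 0.01 with a log2 fold change beyond 1, 0 of the 7 genes rose and 0 fell by limma, against 6.01% and 0.334% of all tested genes, while 2 of the 7 had an unadjusted p under 0.05, against 41.9% of all tested genes. The median log2 fold change of the 7 genes was -0.0137. After median ratio scaling the criterion of 0.05 gave 0 genes higher and 2 lower, GYS2 and KHK, against 11.3% and 10.1% of all tested genes, and GYS2 also passed the stricter limits. With that scaling and pools blocked by number together, 1 gene fell, GYS2 (adjusted p = 0.0207 in limma), and 0 passed the stricter limits. Without initial pool 1, 0 of the 7 genes passed in either direction with the deposited values.

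**Figure D1:**
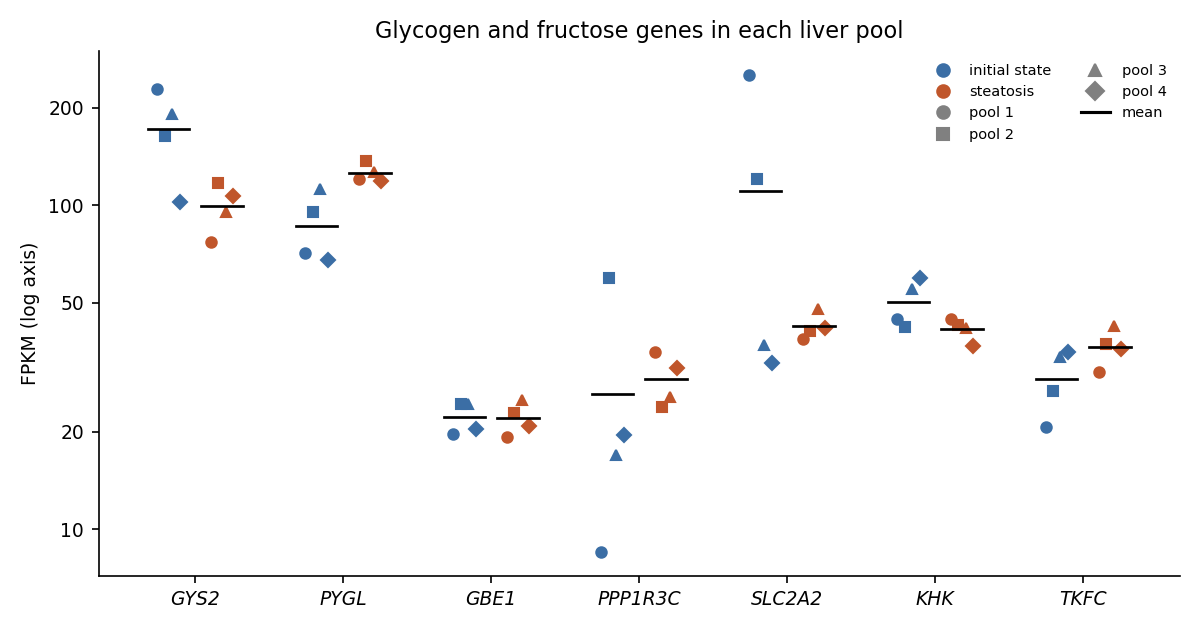
FPKM (log axis) of the 7 genes that passed the filter, in each of 4 initial pools (blue) and 4 steatosis pools (orange), with bars at the group means and marker shapes for the pool number. GYS2 lay lower and PYGL higher in steatosis, while SLC2A2 and PPP1R3C were widely spread in the initial state (32.47 to 253.22 and 8.51 to 59.56 FPKM) and close together in steatosis.

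GYS2 encodes the liver form of glycogen synthase, the enzyme that adds glucose to the growing glycogen chain (gene 100157080, Sscrofa11.1 chr5:51862952-51915153). Its level was 229.01, 164.21, 190.83 and 102.59 FPKM in initial pools 1 to 4, and 76.91, 117.5, 95.44 and 106.89 FPKM in steatosis pools 1 to 4. In the deposited values the first 3 initial pools exceeded every steatosis pool, whereas initial pool 4 lay within the steatosis range. Thus the mean went from 172 ± 53.2 to 99.2 ± 17.4 FPKM (SD, n = 4 pools), and GYS2 was lower in 3 of 4 pools of the same number. On the log2 scale the change was -0.75 (SE 0.23, 95% confidence interval -1.26 to -0.24, adjusted p = 0.0354, limma with Benjamini-Hochberg adjustment), a level 1.68-fold lower. By exact permutation of the pools, with both sides counted, the difference in mean FPKM had p = 0.0857. The fall was larger after median ratio scaling (-1.03, adjusted p = 0.00853, limma). There initial pool 4, which had the lowest divisor (0.773), also lay above every steatosis pool. The call depended on single pools: without initial pool 4 the adjusted p was 0.00411 in limma and without steatosis pool 1 it was 0.0899, and 6 of the 8 libraries, when left out one at a time, took it above 0.05.

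PYGL encodes the liver form of glycogen phosphorylase, which releases glucose-1-phosphate from glycogen (gene 100141306, chr1:180645849-180704124). Initial pools 1 to 4 had 71.01, 95.52, 112.21 and 67.56 FPKM, and steatosis pools 1 to 4 had 120.22, 136.8, 126.62 and 118.85 FPKM. In the deposited values every steatosis pool lay above every initial pool, a separation found in 32.1% of all tested genes. The mean was 86.6 ± 21.1 FPKM in the initial state and 126 ± 8.19 FPKM in steatosis, with PYGL higher in 4 of 4 pools of the same number. PYGL rose 1.48-fold with the deposited values (log2 fold change 0.57, SE 0.16, 95% confidence interval 0.22 to 0.92, adjusted p = 0.0243 in limma), but the estimate was 0.28 with an adjusted p of 0.163 after median ratio scaling and the call was lost. After that scaling initial pool 3 lay within the steatosis range. With the deposited values the exact permutation p of PYGL was 0.0286, the smallest that 4 pools against 4 can give. The call was also lost without initial pool 1, initial pool 4, steatosis pool 2 or steatosis pool 3, with adjusted p values up to 0.0665 in limma. PYGL overlaps ABHD12B by 16584 bases in the annotation, and the use of strand in the counting is not given in the sources used here; ABHD12B had 0.25 to 0.98 FPKM.

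The ratio of GYS2 to PYGL within a library compares the synthase with the phosphorylase and does not change with the scaling between libraries. It was 3.23, 1.72, 1.7 and 1.52 in initial pools 1 to 4, and 0.64, 0.859, 0.754 and 0.899 in steatosis pools 1 to 4. Synthase mRNA was thus above phosphorylase mRNA in every initial pool and below it in every steatosis pool, on a scale that allows for transcript length. The mean log2 ratio went from 0.96 ± 0.49 to -0.36 ± 0.22 (SD, n = 4), a difference of -1.31, or 2.49-fold. The exact permutation test gave p = 0.0286, the smallest it can give, and 0.0714 after Benjamini-Hochberg adjustment over the 5 ratios compared (1 of which is not reported here), which does not pass 0.05. With pools paired by number, an exact sign-flip test gave p = 0.125, the smallest it can give with 4 pairs, and 0.312 adjusted over the 5 ratios. Leaving out each library in turn gave differences from -1.43 to -1.07.

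**Figure D2:**
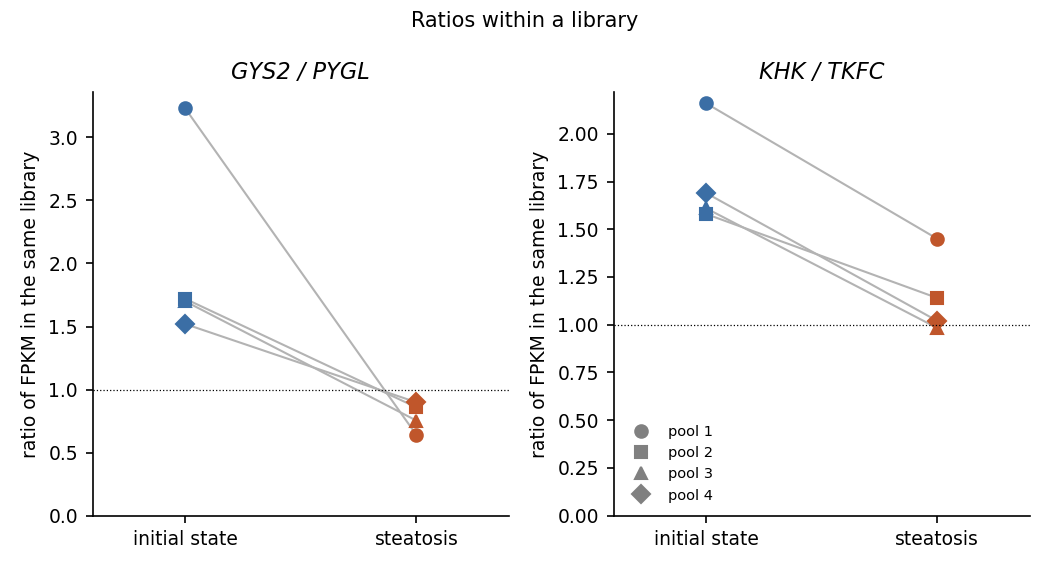
Ratio of FPKM within each library for GYS2 to PYGL (left) and KHK to TKFC (right), both linear from 0, in the initial state and in steatosis, with grey lines joining pools of the same number and a dotted line at 1. Both ratios were lower in steatosis in 4 of 4 pools, and the groups did not overlap.

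GBE1, the branching enzyme that makes the side chains of glycogen (gene 100156209, chr13:173634401-173909646), had the smallest change of the 7 tested genes with the deposited values. Its initial pools 1 to 4 had 19.69, 24.41, 24.26 and 20.45 FPKM, and its steatosis pools 1 to 4 had 19.24, 22.78, 25.09 and 20.87 FPKM. Both sets covered nearly the same range, with means of 22.2 ± 2.48 and 22 ± 2.52 FPKM. The log2 fold change was -0.01 (95% confidence interval -0.27 to 0.25, adjusted p = 0.939, limma), and its sign turned when single libraries were left out. In the initial state 16.8% of tested genes had a narrower log2 range over the pools than the 0.31 of GBE1. After median ratio scaling the estimate was -0.29 with an adjusted p of 0.0896 in limma. The annotation places a pseudogene, LOC102159217, inside the gene, which is not analysed here.

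PPP1R3C encodes a glycogen-targeting subunit of protein phosphatase 1, which brings the phosphatase to glycogen and so favours active synthase (gene 641349, chr14:103273401-103278757). Initial pools 1 to 4 had 8.51, 59.56, 16.95 and 19.51 FPKM and steatosis pools 1 to 4 had 35.16, 23.76, 25.54 and 31.53 FPKM. All steatosis pools lay above 3 initial pools and below initial pool 2. The log2 range over the initial pools was 2.79, wider than in 98.5% of tested genes, against 0.56 in steatosis. The change of 0.50 on the log2 scale (SE 0.47, 95% confidence interval -0.55 to 1.55, adjusted p = 0.448 in limma) was within this spread, and the estimate was 0.22 after median ratio scaling. Without initial pool 2 the estimate was 1.01 with an adjusted p of 0.028 in limma, and without initial pool 1 it was 0.08, so that 1 library decided the value in each direction. Its ratio to PPP1R3B, another targeting subunit, was 2.33 to 5.63 in the initial pools and 2.78 to 4.82 in steatosis. This ratio differed by 0.16 on the log2 scale (exact permutation p = 0.6, 0.75 adjusted over the 5 ratios).

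SLC2A2 encodes GLUT2, the low-affinity carrier by which glucose and fructose cross the hepatocyte membrane (gene 397429, chr13:109592595-109614105). Initial pools 1 and 2 had 253.22 and 120.25 FPKM, and initial pools 3 and 4 had 37.14 and 32.47 FPKM. The 4 steatosis pools had 38.52, 40.99, 47.95 and 41.93 FPKM. Steatosis values thus fell in the gap between both pairs of initial pools. The highest initial pool exceeded the lowest 7.8-fold, against 1.24-fold in steatosis, and the initial log2 range of 2.96 was wider than in 98.8% of tested genes. The mean was 111 ± 103 FPKM and then 42.3 ± 4 FPKM, and the change of -0.88 on the log2 scale (SE 0.56, 95% confidence interval -2.13 to 0.37, adjusted p = 0.258, limma) did not exceed the spread. Without initial pool 1 the estimate was -0.32, and after median ratio scaling with all libraries it was -1.16 (adjusted p = 0.162 in limma).

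The skeletal muscle and stomach markers were high in initial pool 1, where SLC2A2 was highest. In initial pool 2, where SLC2A2 was also above all steatosis pools, the muscle sum was 1.1 FPKM and the stomach sum 15 FPKM. The stomach sum was 29 FPKM in initial pool 3, 5.81 FPKM in initial pool 4 and 6 to 6.5 FPKM in steatosis. The 3 genes most like SLC2A2 over the 8 libraries were RRS1 (Pearson r = 0.989 on log2 values), LTN1 (r = 0.966) and MYH11 (r = 0.959), which were named after their values were seen, and these r are a description. RRS1 serves ribosome assembly and LTN1 the quality control of nascent proteins. MYH11, the smooth muscle myosin heavy chain, had 11.78, 5.54, 1.65 and 1.08 FPKM in initial pools 1 to 4 and 1.33 to 2.58 FPKM in steatosis. The part of other tissue in the SLC2A2 levels was not tested.

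SLC2A5 encodes GLUT5, the fructose carrier that is known best from the small intestine (gene 100625876, chr6:69507829-69535794). Initial pools 1 to 4 were listed at 0, 0.02, 0 and 0 FPKM, and steatosis pools 1 to 4 at 0, 0, 0.02 and 0.04 FPKM. Among the 990 genes within 5% of its length, the lowest values above 0 were 0.01 to 0.02 FPKM, so these levels lie at the limit of what a library could show. A difference was not detectable at this depth, and SLC2A5 did not enter the test. SLC2A2 was listed far above SLC2A5 in every library, and their ratio is given no fold because SLC2A5 was at this limit (exact permutation p = 0.314, 0.524 adjusted over the 5 ratios).

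KHK encodes ketohexokinase, which phosphorylates fructose in the first step of its breakdown (gene 100523241, chr3:112021163-112031615). Its level was 44.62, 42.2, 54.95 and 59.67 FPKM in initial pools 1 to 4 and 44.47, 42.66, 41.8 and 36.75 FPKM in steatosis pools 1 to 4. Initial pools 1, 3 and 4 were above all steatosis pools, pool 1 only just, and initial pool 2 was within their range. The mean was 50.4 ± 8.31 FPKM and then 41.4 ± 3.31 FPKM (exact permutation p = 0.114). The change on the log2 scale was -0.27 (SE 0.13, 95% confidence interval -0.55 to 0.01) with an adjusted p of 0.131 in limma, and -0.55 with an adjusted p of 0.0427 after median ratio scaling, so that a fall in KHK was called after that scaling (and with a common upper quartile) but not with the deposited values, and not with that scaling and pools blocked by number together (adjusted p = 0.0664 in limma).

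TKFC encodes triokinase, which phosphorylates the glyceraldehyde made when the sugar is split (gene 100520121, chr2:10158183-10171452). Initial pools 1 to 4 had 20.63, 26.7, 34.07 and 35.32 FPKM and steatosis pools 1 to 4 had 30.62, 37.27, 42.51 and 35.96 FPKM. TKFC was higher in steatosis in 4 of 4 pools of the same number, although the groups overlapped. The means of 29.2 ± 6.85 and 36.6 ± 4.88 FPKM gave a change of 0.35 on the log2 scale (SE 0.17, 95% confidence interval -0.04 to 0.74, adjusted p = 0.159 in limma), and of 0.07 after median ratio scaling. The annotation overlaps TKFC with LOC100519643 by 978 bases, and that gene had 2.73 to 5.34 FPKM in the initial state and 5.76 to 10.86 FPKM in steatosis.

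The ratio of KHK to TKFC was 2.16, 1.58, 1.61 and 1.69 in initial pools 1 to 4, and 1.45, 1.14, 0.983 and 1.02 in steatosis pools 1 to 4. Its groups did not overlap, although neither gene alone passed the test with the deposited values. The mean log2 ratio went from 0.80 ± 0.21 to 0.18 ± 0.25, a difference of -0.62, or 1.53-fold (exact permutation p = 0.0286, 0.0714 adjusted over the 5 ratios), which does not pass the correction. The exact sign-flip test of pools paired by number gave p = 0.125 here too, and 0.312 adjusted over the 5 ratios. Leaving out each library gave differences from -0.74 to -0.52.

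The order of the mean levels in the initial state was GYS2, SLC2A2, PYGL, KHK, TKFC, PPP1R3C, GBE1 and SLC2A5. The pool ranges of neighbours in this order were separate only between PYGL and KHK, between KHK and TKFC, and between GBE1 and SLC2A5. In steatosis PYGL came first, above GYS2 and SLC2A2, and the rest followed in the same order. There the ranges were separate between PYGL and GYS2, between GYS2 and SLC2A2, and between GBE1 and SLC2A5. Steatosis pools were also closer to each other for genes in general, with a median log2 range over all tested genes of 0.35 against 0.56 in the initial state.

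The tissue forms of these enzymes were compared by their share of the summed FPKM. Among glycogen synthases GYS2 held 98.1% to 98.4% in the initial pools and 95% to 96.7% in steatosis, the rest being the muscle form GYS1. GYS1 itself had 1.9 to 3.77 FPKM and then 3.72 to 4.37 FPKM (log2 fold change 0.46, adjusted p = 0.0933, limma, and 0.19 on that scale after median ratio scaling). Among glycogen phosphorylases PYGL held 98.1% to 99.1% in 7 libraries. Initial pool 1 was the exception, with 39.6% for PYGL and 60.1% for PYGM, the muscle form, at 107.67 FPKM against 0.28 to 0.91 FPKM in the other 7 libraries. The skeletal muscle markers stood at 2942 FPKM in that pool. The brain form PYGB had 0.42 to 0.75 FPKM in the initial state and 0.74 to 0.91 FPKM in steatosis (log2 fold change 0.46, adjusted p = 0.102, limma, and 0.22 on that scale after median ratio scaling). These forms are close in sequence, and how reads were divided among them is part of the authors' estimate.

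**Figure D3:**
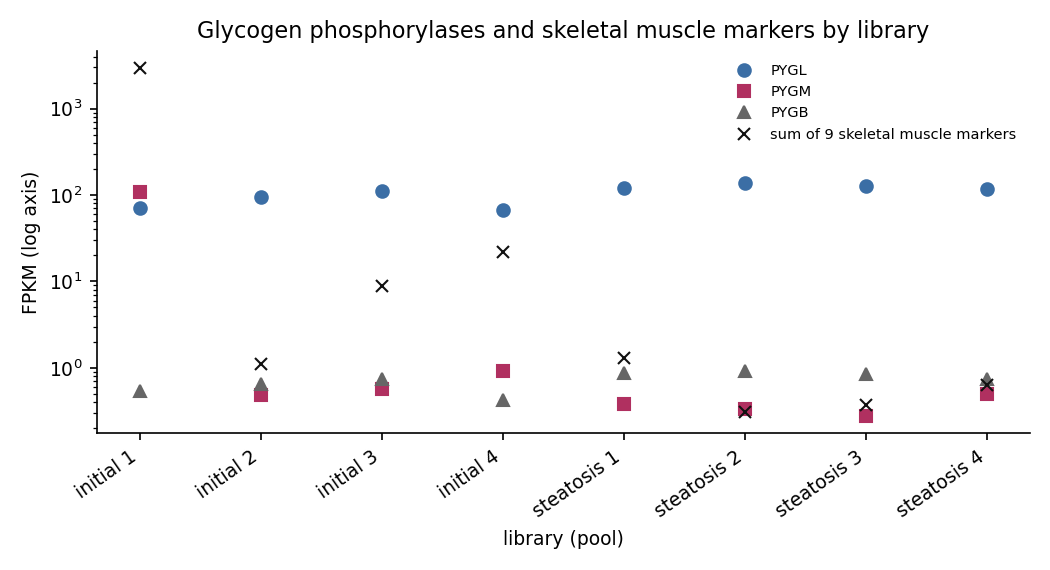
FPKM (log axis) of the liver (PYGL), muscle (PYGM) and brain (PYGB) forms of glycogen phosphorylase and the sum of 9 skeletal muscle markers in each of the 8 libraries. PYGM reached 107.67 FPKM only in initial pool 1, the library with a muscle marker sum of 2942 FPKM, and stayed below 1 FPKM in the rest.

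A wider list of 39 genes of the same pathways was read beside the 8 genes. All 39 were found by symbol and 38 were tested. Of these 7 rose and 1 fell at an adjusted p under 0.05, with a median log2 fold change of 0.16 against 0.25 in all tested genes and a range from -2.45 to 1.39. The shares of all tested genes were 26.7% higher and 2.28% lower. After median ratio scaling 2 rose (AKR1B1 and PHKA2) and 5 fell (SLC2A8, PGM1, GCKR, G6PC and SLC37A4), against 11.3% and 10.1% of all tested genes. Without initial pool 1 the deposited values gave 5 higher and 0 lower in limma.

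On the fructose side 1 of 7 tested genes rose and 0 fell with the deposited values, beside 26.7% and 2.28% of all tested genes. AKR1B1, aldose reductase, which makes sorbitol from glucose in the polyol route to fructose, had 4.16 to 7.68 FPKM in the initial state and 9.8 to 22.96 FPKM in steatosis. It rose by 1.39 on the log2 scale (SE 0.28, adjusted p = 0.00599 in limma), and kept an adjusted p under 0.05 after median ratio scaling (1.11) and without any single library.

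On the glycogen side 6 of 28 tested genes rose and 0 fell with the deposited values, beside 26.7% and 2.28% of all tested genes. GYG1 and GYG2 encode glycogenins, the proteins on which a glycogen particle starts. GYG1 had 3.63 to 6.01 FPKM and then 7.22 to 8.54 FPKM (0.84 on the log2 scale with an SE of 0.16, adjusted p = 0.00473 by limma), and passed 0.05 without each single library in turn, but not after median ratio scaling (0.56, adjusted p = 0.0505). GYG2 had 2.31 to 2.76 FPKM and then 2.98 to 3.88 FPKM (log2 fold change 0.40, adjusted p = 0.0402 in limma, 0.0567 with pools blocked by number, and 0.493 after median ratio scaling), and of the 8 fits with 1 library left out it passed only in that without initial pool 3.

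PHKA2, the liver alpha subunit of phosphorylase kinase, which activates PYGL, had 1.91 to 3 FPKM in the initial state and 4.29 to 5.01 FPKM in steatosis. It rose by 0.97 on the log2 scale (SE 0.15, adjusted p = 0.00155, limma), by 0.70 after median ratio scaling (adjusted p = 0.0041), and it passed without any single library. STBD1, which anchors glycogen to membranes, had 14.52 to 20.96 FPKM and then 21.77 to 27.12 FPKM (0.51, adjusted p = 0.0248 in limma, and 0.212 after median ratio scaling), and its call was lost without initial pool 1 or 4 or steatosis pool 1 or 3.

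Targeting subunits of protein phosphatase 1 other than PPP1R3C were low. PPP1R3E had 1.99 to 3.89 FPKM and then 4.25 to 5.4 FPKM (log2 fold change 0.76, adjusted p = 0.0178 in limma, and 0.0595 after median ratio scaling), and its call was lost without steatosis pool 2 (adjusted p = 0.0537). PPP1R3D had 0.51 to 1.16 FPKM and then 1.13 to 1.5 FPKM (0.72, adjusted p = 0.0389 in limma, and 0.122 after that scaling), and of the 8 fits with 1 library left out it passed only in that without initial pool 3. PPP1R3B had 2.72, 10.58, 6.3 and 8.37 FPKM in initial pools 1 to 4 and 7.3 to 8.56 FPKM in steatosis (log2 fold change 0.33, adjusted p = 0.483, limma, and 0.06 on that scale after median ratio scaling). As for PPP1R3C, initial pool 1 was lowest and initial pool 2 highest for PPP1R3B.

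Of 3 genes that link glycogen to glucose, 0 rose and 1 fell with the deposited values, beside 26.7% and 2.28% of all tested genes. After median ratio scaling 0 rose and 3 fell (GCKR, G6PC and SLC37A4), beside 11.3% and 10.1% of all tested genes. G6PC, the catalytic subunit of glucose-6-phosphatase, which frees glucose for release, had 689.32, 497.88, 521.32 and 249.7 FPKM and then 196.9, 317.86, 257.72 and 224.17 FPKM. Like GYS2 it was lower in steatosis than in the first 3 initial pools, with initial pool 4 inside the steatosis range in the deposited values. After median ratio scaling initial pool 4 also lay above every steatosis pool, as for GYS2. G6PC fell, with a change of -0.91 on the log2 scale (SE 0.28, adjusted p = 0.0356 in limma), -1.19 after median ratio scaling, and -0.71 without initial pool 1, where the adjusted p was 0.0714. The call was also lost without initial pools 2 or 3 or steatosis pools 1, 3 or 4, with adjusted p values up to 0.0886 in limma, and held without the other two libraries.

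**Figure D4:**
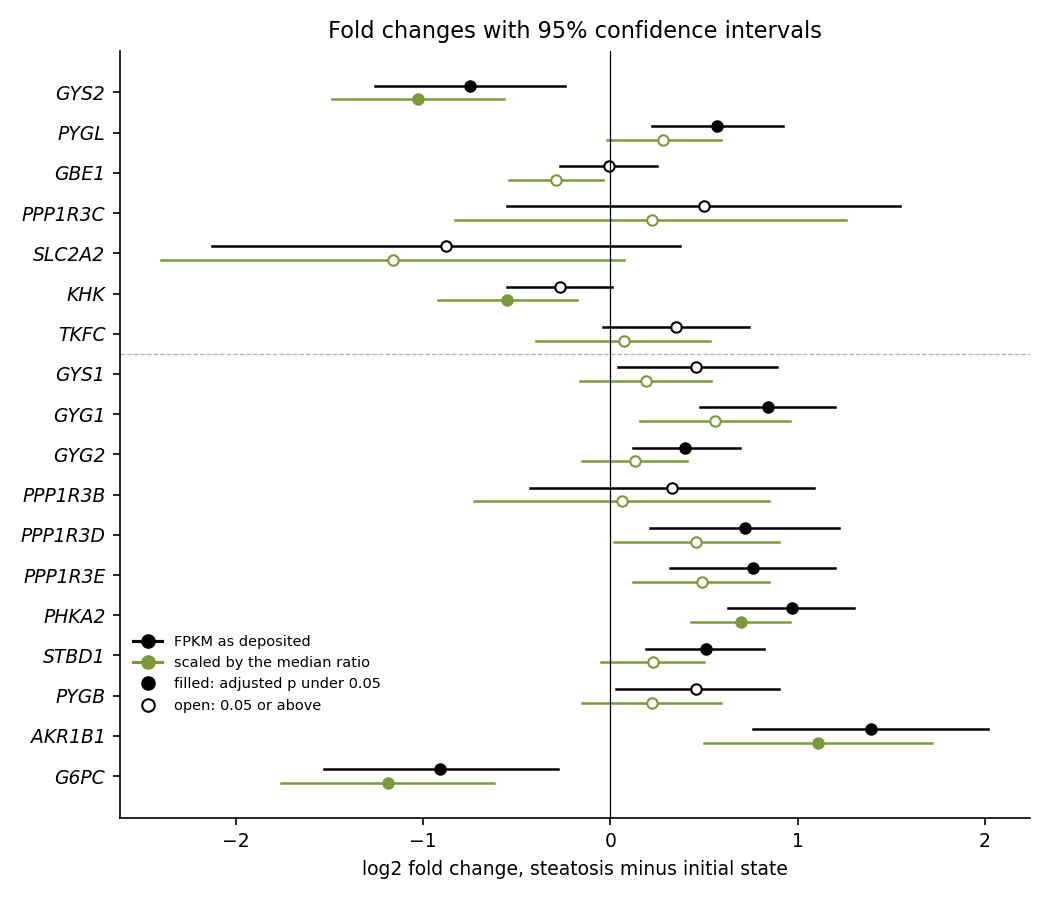
Log2 fold change, steatosis minus initial state, of the 7 tested genes (above the dashed line) and of genes of the wider list (below it), with bars for the 95% confidence interval, for deposited FPKM (black) and after median ratio scaling (green). Filled points had an adjusted p under 0.05 in limma. GYS2, PHKA2, AKR1B1 and G6PC are filled on both scales. PYGL, GYG1, GYG2, PPP1R3D, PPP1R3E and STBD1 are filled only on the first, and KHK only on the second.

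The genes whose levels most resembled those of GYS2 and PYGL were found by Pearson's r of log2(FPKM + 0.1) over the 8 libraries, which share the difference between groups. For GYS2 these were TOB1 (r = 0.979), which encodes an antiproliferative protein, G6PC (r = 0.979) and PHLPP1 (r = 0.975), which encodes a protein phosphatase. TOB1 had 37.77 to 93.04 FPKM in the initial state and 24.65 to 35.22 FPKM in steatosis. For PYGL they were PPP1R3E (r = 0.992), OTUB2 (r = 0.989), which encodes a deubiquitinase, and STARD8 (r = 0.985), which encodes a GTPase-activating protein. OTUB2 had 0.35 to 0.77 FPKM and then 0.99 to 1.18 FPKM. These values are a description.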

How the data were processed

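Poly-A RNA of 8 liver pools was sequenced by the authors with paired reads of 100 bases. Reads were filtered, mapped by the authors with HISAT2 2.0.4 to Sus scrofa 11.1 and assembled with StringTie, and expression was estimated with Bowtie2 2.2.5 and RSEM 1.2.12. FPKM, normalised by the authors for transcript length and mapped fragments, was deposited for all libraries in 1 table, with another column for the gene symbol. Gene lengths in bases were taken from the deposited comparisons of single pairs of pools. The number of fragments behind each value was not analysed here. No counting error was drawn from FPKM, and the SD between pools stands for the precision. The deposited comparisons of single pairs of pools hold the same FPKM values with 0 written as 0.01, and the authors' fold changes and FDR values in them were not used. All 17778 known genes had an ID in RefSeq, and coordinates are those of its assembly Sscrofa11.1.

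The filter kept 13175 of 18103 genes, those that reached 0.3 FPKM in 4 or more of the 8 libraries. On log2(FPKM + 0.1) these were compared by group with limma 3.58.1 (R 4.3.3, trend of variance with mean, no other term), and p values were adjusted over all tested genes by the method of Benjamini and Hochberg. The fit was tested on simulated data only for larger changes than the 8 genes showed and at the stricter limits. Independent noise was simulated without a shift between groups, so the outcome does not bear on calls at an adjusted p under 0.05. Log2 ratios within a library were compared by exact permutation of the pools (two-sided). As an alternative, their differences between pools of the same number were compared by an exact sign-flip test. Other steps used pandas 2.3.3, numpy 2.4.6 and scipy 1.17.1 under Python 3.11.15, and plots were drawn in matplotlib 3.10.9. The genes, the wider list, the marker lists (hepatocyte, macrophage, skeletal muscle, stomach mucosa, adipose, red blood cell and small intestine) and the tests were chosen with earlier results of these data known. Named are the 8 genes, each gene of the wider list with an adjusted p under 0.05, GYS1, PYGB, PYGM and PPP1R3B whatever they showed, and the 3 genes most like each of the 8 that passed. ALDOC, PHKA1, GAA, RRS1, LTN1, MYH11 and the small intestine markers were named after their values were seen. So were the genes of the wider list called only after median ratio scaling. A few genes of the wider list and 1 ratio are not reported here, although the ratio was kept in the adjustment.

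Pool numbers come from the labels, and the sources used here do not state that equal numbers hold the same pigs. Deviations from the group means correlated at 0.16, 0.35, 0.32 and 0.25 for pools 1 to 4, all above 0.1, and the numbers were taken to pair the pools. A fit with pools blocked by number was an alternative, as were 3 scalings between libraries, a pseudocount of 1, other filters and leaving out each library. Median ratio scaling together with the block was added after the data were seen.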

Additional observations from a re-analysis of the deposited data

Results flagged for a closer look

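In 52 groups of 4 pools, 6 had 1 pool whose distance from the nearest of the others took up more of the range than Dixon's 95% limit, and chance flags about 1 in 20 groups. Among these, 4 lay in initial pool 1, the pool with skeletal muscle markers at 2942 FPKM. In it PYGM was at 108 FPKM (0.48 to 0.91 in the other initial pools), PHKA1, the muscle alpha subunit of phosphorylase kinase, at 5.02 FPKM (0.58 to 0.98), and ALDOC, the brain aldolase, at 4.5 FPKM (0.62 to 0.88). There the log2 ratio of GYS2 to PYGL was 1.69, and 0.60 to 0.78 in the other initial pools. SLC2A5 was listed at 0.02 FPKM in initial pool 2 and at 0 in the other initial pools, a step at the limit of detection. In steatosis pool 4, PPP1R3D was at 1.13 FPKM (1.47 to 1.5 in the others). The causes were not tested.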

How the results depend on the processing

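GYS2 kept its negative sign and PYGL its positive sign under all alternatives tried, and their ratio kept its sign without each library in turn. With pools blocked by number (replicate block), the adjusted p in limma was 0.0499 for GYS2 and 0.0146 for PYGL. In the wider list GYG2 lost its call with the block (0.0567), and GAA gained one (0.039 in limma, against 0.0512 without the block). Of the 8 genes, the number that rose was 1 with the deposited values, 0 with a common upper quartile, 0 with median ratio scaling and 0 with that scaling and the block, and ranged from 0 to 2 without single libraries. The number that fell was 1, then 0 with no filter, 2 with upper quartile, 2 with median ratio scaling and 1 with that scaling and the block, and 0 to 1 without single libraries. By the stricter limits 1 fell after median ratio scaling, and 0 with the deposited values or with that scaling and the block. In the wider list the number that rose was 7, then 3 with upper quartile, 2 with median ratio and 3 with median ratio and the block, and 4 to 8 without single libraries. The number that fell was 1, then 0 with no filter, 4 with upper quartile, 5 with median ratio and 4 with median ratio and the block, and 0 to 1 without single libraries. The cause was not tested.

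Signs turned only near 0 or with initial pool 1 left out. GBE1 was 0.03 without initial pool 2, 0.03 without initial pool 3, 0.05 without steatosis pool 1 and 0.01 without steatosis pool 4. Its range over the libraries left out was -0.08 to 0.05. PPP1R3B was -0.06 without initial pool 1 and at most 0.58 without another. PHKA1 (-0.03) was 0.60 without initial pool 1 and 0.05 without steatosis pool 3, with a lowest value of -0.37. With 4 pools in a group the exact permutation test cannot go below 0.0286 and the paired sign-flip test cannot go below 0.125.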
